A study of Homo sapiens with 4 samples.

Results

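The arrestin family was followed in MDA-MB-231, a line of human triple-negative breast cancer, after treatment with MGH-CP1, a small molecule that blocks the autopalmitoylation of the TEAD transcription factors. The 7 genes were picked by symbol, irrespective of their level, from the 48162 genes of the deposited table. They are the alpha arrestins TXNIP, ARRDC1, ARRDC2, ARRDC3 and ARRDC4, and the beta arrestins ARRB1 and ARRB2. The choice was made with earlier results of these data known. Cells received MGH-CP1 or vehicle (DMSO in the table) for 24 h in DMEM with serum, and 2 libraries were made per group from RNA selected by its poly(A) tail. The labels give the dose as 10 µM, while the methods give 10 mM. All 4 libraries come from the same cell line, and nothing states whether they came from separate cultures. The p-values therefore rest on the spread between these libraries, which the main test pools in part across genes, and not on a known spread between cultures. Levels are FPKM, in which fragments are divided by the length of the gene and by the size of the library, and can therefore be compared between genes.

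Arrestins are adaptor proteins that share a fold of beta sheets. The beta arrestins ARRB1 and ARRB2 bind G protein-coupled receptors once GPCR kinases have phosphorylated them, end their signalling to G proteins and link them to clathrin and the AP2 adaptor for uptake. The alpha arrestins carry PPxY motifs that recruit ubiquitin ligases of the NEDD4 family to membrane cargo. TXNIP also binds and inhibits thioredoxin and lowers glucose uptake, and both TXNIP and ARRDC4 are classical targets of MondoA, a transcription factor that responds to glucose phosphates together with its partner MLX.

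The promoters of TXNIP and ARRDC4 are shown because these genes are known targets of the same factor and were both lower in the MGH-CP1 libraries. Of the 7 genes, 6 had a RefSeq promoter (ARRB1 had none), with 9 start sites in all. Each window held the 250 bases before a start in GRCh38.p14, and bases 250 to 31 before the start are printed, on the strand of the gene, for chr1:145996610-145996829 (minus strand) and chr15:97960453-97960672 (plus strand). Capitals mark the letters of the E-box CACGTG, of the FOXO motif GTAAACA and of a looser pair of E-box-like letters, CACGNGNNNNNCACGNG. The pair was chosen after the TXNIP sequence was seen, and its letters in TXNIP are not CACGTG.
TXNIP: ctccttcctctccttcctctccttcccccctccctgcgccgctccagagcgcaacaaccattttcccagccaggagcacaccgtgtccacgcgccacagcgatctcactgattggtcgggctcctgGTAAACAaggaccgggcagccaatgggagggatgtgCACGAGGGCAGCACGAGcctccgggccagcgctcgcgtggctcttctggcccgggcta
ARRDC4: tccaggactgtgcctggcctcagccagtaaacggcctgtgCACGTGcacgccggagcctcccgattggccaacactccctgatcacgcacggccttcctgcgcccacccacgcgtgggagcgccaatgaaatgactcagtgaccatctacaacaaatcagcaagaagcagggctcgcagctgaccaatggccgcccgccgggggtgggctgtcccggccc

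The E-box of ARRDC4 began 210 bases before the start, and CACGTG was found on either strand in 6.34% of all 35116 promoter windows. In TXNIP, GTAAACA began 124 bases and the looser pair 88 bases before the start, and these letters were found in 2.98% and 0.0456% of the windows. GTAAACA, searched on both strands, also began 29 bases before a start of ARRDC3. CATTCC, the MCAT element bound by TEAD, lay in 0 of the 9 windows and in 11.9% of all windows. A match describes letters and is not evidence of binding.

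Gene fragments numbered 25455533 and 25508824 in vehicle control and 17997221 and 17577930 after MGH-CP1, so a gene of equal FPKM rests on fewer fragments after MGH-CP1. The mesenchymal markers VIM (259 to 281 FPKM) and CD44 (198 to 221 FPKM) were abundant. KRT18 and EGFR were present but fell, by 0.35 and 0.46 on the log2 scale. ESR1 and PGR, the hormone receptors this line lacks, did not exceed 0.0243 FPKM in any library. CDH1, listed with them as low or absent, had 0.363 and 0.289 FPKM with vehicle, and 0.638 and 0.572 FPKM with MGH-CP1. Of 3 leukocyte markers, CD3E was listed at 0 in every library, and their summed level was 0.202 and 0.256 FPKM in the vehicle control and 1.22 and 1.11 FPKM in the MGH-CP1 libraries, nearly all of it LYZ, which had 7 to 33 fragments per library. The hepatocyte marker ALB had 3 fragments in MGH-CP1 replicate 1 and 102 in MGH-CP1 replicate 2, and was listed at 0 in the vehicle control libraries. The part of either in the results below was not tested. The fibroblast markers summed to between 0.193 and 0.326 FPKM, the endothelial markers (CDH5 and VWF) to at most 0.0311 FPKM, and the retinal marker OPN1LW was listed at 0.

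All 7 genes passed the filter of a mean of at least 1 FPKM over the libraries, ARRDC4 only through its vehicle control level. After MGH-CP1, 4 of them rose (ARRB1, ARRDC1, ARRDC2 and ARRDC3), 2 fell (ARRB2 and TXNIP) and ARRDC4 did not pass the test. The test was limma on log2(FPKM + 1) across 12080 genes, with a threshold of 0.05 on the Benjamini-Hochberg adjusted p. The background was high: of all genes tested, 27.1% rose, 23.8% fell and 50.8% were called in either direction. For every one of the 7 genes the MGH-CP1 libraries lay outside the range of the vehicle control libraries, with 4 above and 3 below, as did 77.2% of all genes tested (39.8% above and 37.4% below). With 2 libraries against 2, the exact permutation p of any such gene is 0.333, the smallest possible, so the calls depend on limma pooling variance across genes. The median log2 fold change was 0.59 over the 7 genes and 0.01 over all genes tested. The 0.59 is the value of ARRDC3, and 3 of the 7 genes were lower after MGH-CP1. The genes were chosen with earlier results of these data known, and the difference between the medians was not tested. In RNA of bulk cultures, fewer cells that express a gene and less of its RNA per cell cannot be told apart.

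**Figure D1:**
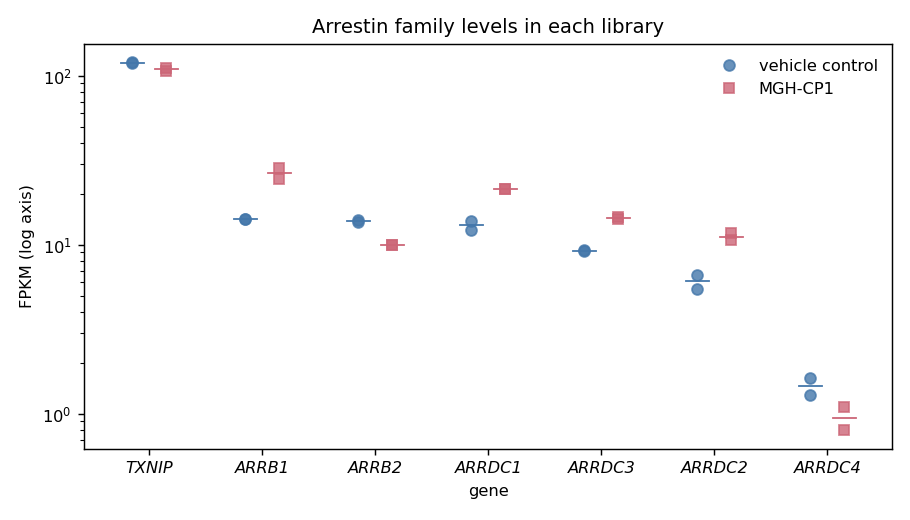
FPKM (log axis) of the 7 arrestin family genes, ordered by their vehicle control level, with vehicle control libraries as circles, MGH-CP1 libraries as squares and group means as short lines. ARRB1 and ARRB2 start near the same level, at 14.1 and 13.8 FPKM, and part to 26.5 and 9.97 FPKM, while TXNIP stays above 107 FPKM in every library.

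The beta arrestins moved in opposite directions. ARRB1 (ENSG00000137486, minus strand of chr11:74975226-75062873 in hg19) had 14.1 FPKM in each vehicle control library, against 28.5 and 24.4 FPKM after MGH-CP1. Both treated values were far above the controls, and the treated libraries differed from each other by more than the controls did. The means were 14.1 ± 0.0124 and 26.5 ± 2.92 FPKM (SD, n = 2), a ratio of 1.87, and the log2 fold change was 0.86 (standard error 0.08, 95% confidence interval 0.68 to 1.03, adjusted p = 9.38e-05 from limma). Among the genes tested, 2.89% had a larger rise. The study placed ARRB1 on its list of genes commonly raised by TEAD–YAP blockade, a list that was drawn partly from these libraries, so this rise is not independent evidence of that choice.

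ARRB2 (ENSG00000141480, plus strand of chr17:4613784-4624794 in hg19), the other ubiquitous arrestin, had 13.6 and 14.0 FPKM in vehicle control, against 9.94 and 10.0 FPKM after MGH-CP1. Each pair of replicates lay close together, and the groups were well apart. The fall from 13.8 ± 0.273 to 9.97 ± 0.0403 FPKM (SD, n = 2) was -0.43 on the log2 scale (95% confidence interval -0.57 to -0.29, standard error 0.06, adjusted p = 7.71e-04 from limma), and 8.51% of the genes tested fell more. ARRB2 had from 333 to 675 fragments in a library, and ARRB1 from 1198 to 1712.

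Within each library, ARRB1 made up 51.0% and 50.3% of the summed beta arrestin FPKM with vehicle, against 74.2% and 70.9% with MGH-CP1. The share of ARRB1 was thus 21.9 percentage points higher after MGH-CP1, with 50.6 ± 0.473% against 72.5 ± 2.28% (SD, n = 2, exact permutation test, two-sided, p = 0.333). A share within a library does not change with the scaling between libraries. The ratio of ARRB1 to ARRB2 was 1.04 and 1.01 with vehicle, and 2.87 and 2.44 with MGH-CP1. Their sum went from 27.9 ± 0.285 to 36.4 ± 2.88 FPKM (SD, n = 2), so the beta arrestin RNA as a whole was 1.31 times the vehicle control level, above it in both treated libraries.

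**Figure D2:**
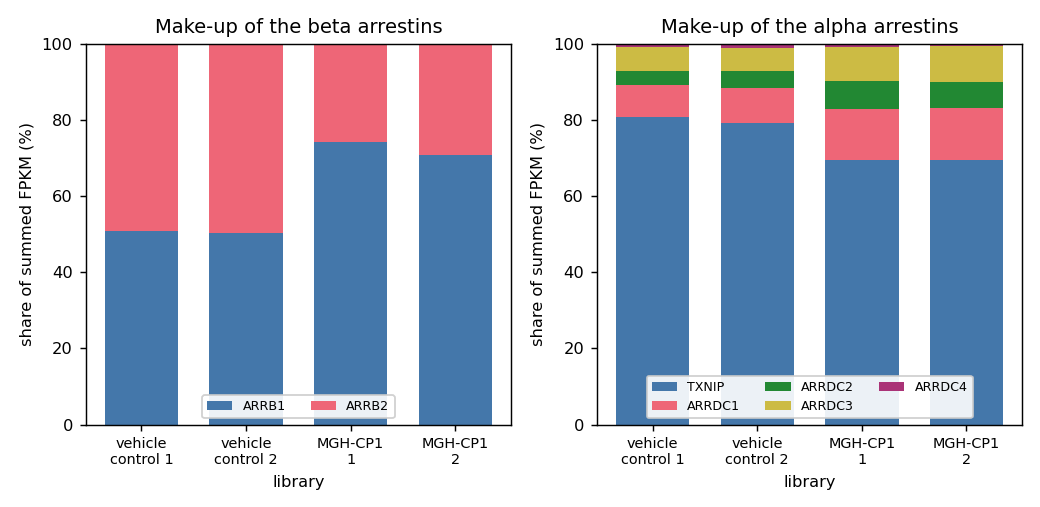
Share (%) of each gene in the summed FPKM of the beta arrestins (left) and of the alpha arrestins with TXNIP (right), as stacked bars for each of the 4 libraries. ARRB1 takes 50.3% to 51.0% of the beta arrestin signal in the vehicle control libraries and 70.9% to 74.2% in the MGH-CP1 libraries, and TXNIP takes less of the alpha arrestin signal after MGH-CP1.

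Of the alpha arrestins, ARRDC1, ARRDC2 and ARRDC3 rose together. ARRDC1 (ENSG00000197070, plus strand of chr9:140500106-140509812 in hg19), which drives the budding of small vesicles from the plasma membrane, had 12.2 and 13.9 FPKM in vehicle control, against 21.4 and 21.3 FPKM after MGH-CP1. The controls differed more from each other than the treated libraries did, and the lower treated library still exceeded the higher control by 0.58 on the log2 scale. Its log2 fold change was 0.67 (standard error 0.07, 95% confidence interval 0.51 to 0.84, adjusted p = 1.85e-04 from limma). The last 29 bases of ARRDC1 overlap C9orf37 on the opposite strand, which had 7.78 and 8.95 FPKM with vehicle, and 11.9 and 12.0 FPKM with MGH-CP1. Whether the counting used the strand is not given in the sources used here.

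ARRDC2 (ENSG00000105643, plus strand of chr19:18111941-18124911 in hg19), one of the less studied members, had 5.50 and 6.64 FPKM in vehicle control, against 11.7 and 10.6 FPKM after MGH-CP1. The groups were well apart. Its log2 fold change, 0.78 (95% confidence interval 0.57 to 1.00, standard error 0.09, adjusted p = 3.33e-04 from limma), was the highest of the alpha arrestins, and the ratio of the group means was 1.83. Its replicates were also the widest apart of the 3 rising alpha arrestins, with a range of 0.23 on the log2 scale in the vehicle control libraries. The antisense gene listed over its end, CTB-52I2.5, was listed at 0 in every library.

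ARRDC3 (ENSG00000113369, minus strand of chr5:90664541-90679176 in hg19), known for the ubiquitination and degradation of integrin beta 4 in breast cancer cells, had 9.17 and 9.30 FPKM in the vehicle control libraries. In the MGH-CP1 libraries it had 14.3 and 14.6 FPKM, with narrow spread in both groups. The log2 fold change was 0.59 (standard error 0.06, 95% confidence interval 0.45 to 0.73, adjusted p = 1.75e-04 from limma), and 7.82% of the genes tested rose more. ARRDC3 is also on the study's list of commonly raised genes, with the same reservation as for ARRB1. The intervals of ARRDC1, ARRDC2 and ARRDC3 overlap, and differences between their rises were not tested.

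**Figure D3:**
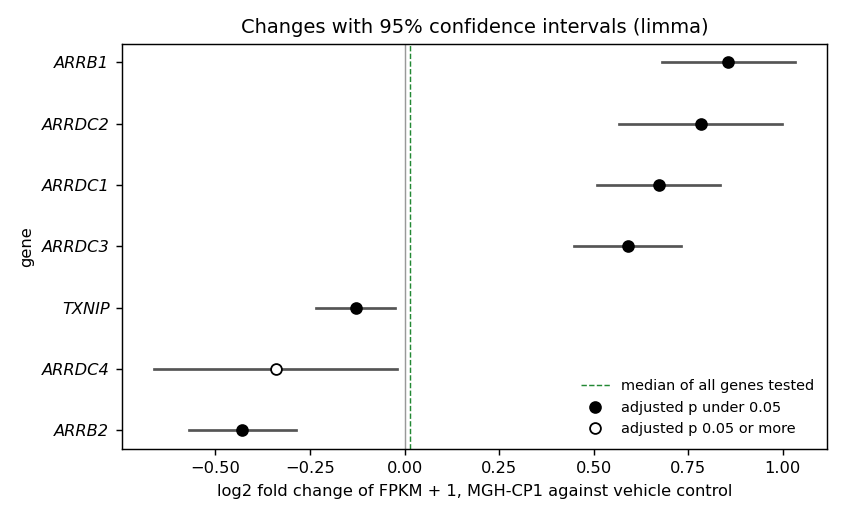
Log2 fold change of FPKM + 1 for the 7 genes (points) with 95% confidence intervals from limma (bars), filled where the adjusted p was under 0.05, with the median of all genes tested as a dashed line at 0.01. Of the 7 intervals, 4 lie above 0 and 3 below it, and only ARRDC4 has an open point.

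TXNIP (ENSG00000117289, plus strand of chr1:145438469-145442635 in hg19) was the most abundant of the 7 genes and the least changed. It had 119 and 120.0 FPKM in vehicle control, against 111 and 107 FPKM after MGH-CP1. By mean level, 96.3% of the genes tested were below it. Both treated libraries were below both controls, by at least 0.10 on the log2 scale. The log2 fold change was -0.13 (standard error 0.05, 95% confidence interval -0.23 to -0.02, adjusted p = 0.0440 from limma), and 32.2% of the genes tested fell more. This call was lost when any library was left out, with adjusted p-values from limma of 0.0714 without vehicle control replicate 1, 0.10 without vehicle control replicate 2, 0.0946 without MGH-CP1 replicate 1 and 0.202 without MGH-CP1 replicate 2. In these fits 1 group has a single library, whose spread is assumed to be that of the other group, and the log2 fold change ran from -0.15 to -0.11. With all 4 libraries the call was also lost under quantile normalization (adjusted p = 0.0603 from limma), without the trend (0.124), without a filter on low values (0.0823) and without sharing of variance (0.0977). TXNIP had from 5523 to 8960 fragments in a library, so counting error was at most 1.35%.

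ARRDC4 (ENSG00000140450, plus strand of chr15:98462784-98517068 in hg19), a relative of TXNIP that also lowers glucose uptake, was the least abundant member. Its levels were 1.29 and 1.63 FPKM in vehicle control, against 1.09 and 0.796 FPKM after MGH-CP1. Every treated value was below the controls, but the replicates within each group were further apart than the nearest libraries of different groups. The log2 fold change was -0.34 (standard error 0.14, 95% confidence interval -0.66 to -0.02), and the adjusted p of 0.0734 from limma missed the threshold. With 134 and 169 fragments in the vehicle control and 80 and 57 in the MGH-CP1 libraries, counting error alone is 13.2% at the lowest value. Because the pseudocount of 1 is near the level of ARRDC4, the fold change understates the ratio of its FPKM, which was 0.647. On the recovered fragments, limma voom gave -0.63 (adjusted p = 0.0137).

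In the vehicle control libraries the order of levels was TXNIP, ARRB1, ARRB2, ARRDC1, ARRDC3, ARRDC2 and ARRDC4, from 119 to 1.46 FPKM. The ranges of ARRB2 and ARRDC1 overlapped, so their order is not resolved, and those of ARRB1 and ARRB2 were adjacent without overlapping. After MGH-CP1 the order was TXNIP, ARRB1, ARRDC1, ARRDC3, ARRDC2, ARRB2 and ARRDC4, and the ranges of neighbours did not overlap. ARRB2 thus went from order 3 to order 6. TXNIP alone made up 80.0 ± 1.12% of the summed alpha arrestin FPKM in the vehicle control libraries and 69.5 ± 0.0928% in the MGH-CP1 libraries (SD, n = 2, exact permutation test, two-sided, p = 0.333). The other 4 alpha arrestins together went from 29.8 ± 2.33 to 47.8 ± 0.817 FPKM (SD, n = 2), a ratio of 1.60, and with TXNIP added the sum was 149 ± 3.31 and 157 ± 3.16 FPKM, a ratio of 1.05.

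To place these changes among the proteins that arrestins work with, 9 lists of 61 genes were read from the same fit. Of the 47 that were tested, 7 rose, 8 fell and 32 did not pass, so 31.9% were called, against the 50.8% of all genes tested. The 7 include MLXIPL, which passed the filter only through its MGH-CP1 level. Of the ubiquitin ligases that bind alpha arrestins, 7 were tested of 9 listed. Of these, 2 fell and 5 did not pass, with a median log2 fold change of -0.04. This count is near the 23.8% of all genes tested that fell. NEDD4L, a regulator of ion channels, had 27.3 and 26.5 FPKM with vehicle, and 16.7 and 19.2 FPKM with MGH-CP1 (log2 fold change -0.56, adjusted p = 4.59e-04 from limma), and NEDD4, the founding member, fell from 9.78 ± 0.889 to 6.77 ± 0.239 FPKM (SD, n = 2, log2 fold change -0.47, adjusted p = 0.00185 from limma). ITCH, which ubiquitinates TXNIP, had 27.8 and 26.1 FPKM in the means of the groups (adjusted p = 0.242 from limma). Of the 4 ESCRT factors, the membrane-cutting machinery that ARRDC1 vesicles use, 0 passed limma's test, 1 had an unadjusted p under 0.05 and limma voom called 0. That 1 was TSG101, the partner bound directly by ARRDC1, with 41.9 ± 1.71 and 46.0 ± 1.31 FPKM (SD, n = 2). Of all 12080 genes tested, 6911 had an unadjusted p under 0.05 in limma, and limma voom called 6593.

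Of 5 tested of 9 receptors that beta arrestins bind, 3 fell and 2 did not pass, and the median log2 fold change was -0.16. Of all genes tested, 23.8% fell, and whether 3 of 5 differs from that share was not tested. CXCR4, the chemokine receptor for CXCL12, had 15.5 and 13.4 FPKM with vehicle, and 6.60 and 7.87 FPKM with MGH-CP1. This was the largest fall in these lists, by 0.91 on the log2 scale (adjusted p = 1.93e-04 from limma). LPAR1, a receptor for lysophosphatidic acid, fell by 0.35 on the log2 scale, and F2R, the thrombin receptor, by 0.16 (adjusted p-values from limma of 0.00329 and 0.0468). F2RL1, the most abundant of them, had 66.8 ± 1.17 and 63.7 ± 1.67 FPKM (SD, n = 2) and did not pass.

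The GPCR kinases, which prepare receptors for beta arrestins, were mixed: of 4 tested of 7 listed, GRK5 rose by 0.30 on the log2 scale (adjusted p = 0.00701 from limma), GRK6 fell by 0.29 (adjusted p = 0.00431 from limma) and 2 did not pass. Among all genes tested, 27.1% rose and 23.8% fell. ADRBK1, now named GRK2, had 24.4 ± 1.45 and 25.3 ± 0.304 FPKM (SD, n = 2). Of the 9 subunits of AP2 and clathrin, all tested, 1 passed limma's test, 2 had an unadjusted p under 0.05 and limma voom called 2. The 1 was AP2B1, which holds the site that beta arrestins bind, and it fell from 123 ± 1.65 to 107 ± 1.79 FPKM (SD, n = 2, log2 fold change -0.20, adjusted p = 0.00707 from limma). The list had a median of -0.05, and 50.8% of all genes tested were called in either direction. An unadjusted p under 0.05 was found for 6911 of all 12080 genes tested, and limma voom called 6593 of them.

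**Figure D4:**
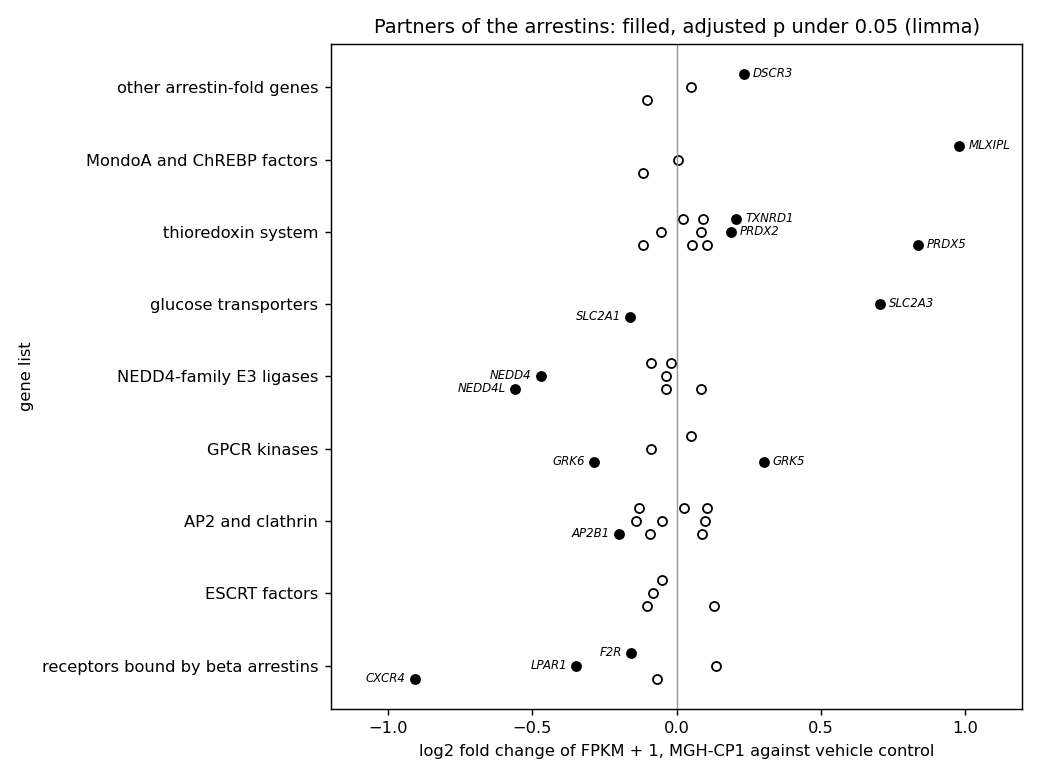
Log2 fold change of FPKM + 1 (horizontal) of the 47 tested genes in 9 lists of arrestin partners (vertical, spread for legibility), filled and named where the adjusted p from limma was under 0.05. CXCR4 lies furthest to the left at -0.91. MLXIPL, which passed the filter only through its MGH-CP1 level, lies furthest to the right at 0.98. The filled points of the NEDD4-family list (2 of 7) and of the receptor list (3 of 5) are below 0. Of all genes tested, 23.8% fell.

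On the side of TXNIP, 3 of 10 genes of the thioredoxin system rose and 7 did not pass, a share near the 27.1% of all genes tested that rose, with a median log2 fold change of 0.09. PRDX5, a peroxiredoxin of mitochondria and peroxisomes, rose most, from 82.7 ± 9.14 to 148 ± 4.34 FPKM (SD, n = 2, log2 fold change 0.84, adjusted p = 8.24e-05 from limma). TXNRD1, the reductase that recharges cytosolic thioredoxin, rose by 0.21 and PRDX2 by 0.19 on the log2 scale (adjusted p-values from limma of 0.00534 and 0.0159). Thioredoxin itself, TXN, the protein that TXNIP inhibits, had 350 ± 0.900 and 337 ± 2.37 FPKM (SD, n = 2) and did not pass (adjusted p = 0.352 from limma).

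Among the factors that act on the TXNIP and ARRDC4 promoters, MLXIP, which encodes MondoA, had 18.9 ± 0.272 and 17.3 ± 0.988 FPKM (SD, n = 2, adjusted p = 0.153 from limma), and its partner MLX had group means of 25.9 and 26.1 FPKM (adjusted p = 0.939 from limma). MLXIPL, which encodes the related factor ChREBP, rose from 0.383 and 0.646 FPKM to 2.07 and 1.89 FPKM (log2 fold change 0.98, adjusted p = 7.00e-04 from limma). It passed the filter only through its MGH-CP1 level and rests on 32 to 122 fragments per library. The glucose transporters were split: SLC2A1 (GLUT1) fell from 258 ± 1.44 to 231 ± 0.374 FPKM (SD, n = 2, log2 fold change -0.16, adjusted p = 0.0160 from limma), and SLC2A3 (GLUT3) rose from 10.3 ± 0.317 to 17.6 ± 2.07 FPKM (log2 fold change 0.71, adjusted p = 3.07e-04 from limma). SLC2A2 and SLC2A4 were below the filter.

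Of the other 6 genes with an arrestin fold, ARRDC5 and the rod arrestin SAG were listed at 0 in all libraries, and the cone arrestin ARR3 had 0.182 to 0.307 FPKM. The retromer subunit VPS26A had 52.0 ± 4.92 and 48.2 ± 0.853 FPKM and VPS26B 18.6 ± 0.612 and 19.3 ± 0.131 FPKM (SD, n = 2), and neither passed the test. DSCR3, now named VPS26C, a subunit of the retriever complex, rose by 0.23 on the log2 scale (adjusted p = 0.0119 from limma), a smaller change than that of any of the 4 rising arrestins.

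The profile of ARRB1, the gene with the largest change of the 7, was compared with all genes tested by the Euclidean distance of log2(FPKM + 1), centred on the mean of the 4 libraries. The nearest were ENTHD2 (distance 0.04, 1.24 and 1.25 FPKM with vehicle, 3.40 and 2.66 FPKM with MGH-CP1), CD9 (distance 0.05, 88.4 and 88.5 FPKM, then 168 and 150.0 FPKM) and TIMP1 (distance 0.05, 195 and 194 FPKM, then 371 and 333 FPKM). In all, 41 genes lay within 0.1 of ARRB1. With only 4 libraries in 2 groups, such likeness describes a similar size of change and a similar gap between the MGH-CP1 replicates.

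The direction of each of the 7 changes was the same under all settings tried, including median-ratio scaling and quantile normalization, as the plot of the settings shows. ARRB1, ARRB2, ARRDC1, ARRDC2 and ARRDC3 were also called when any single library was left out, where the spread comes from the other group's pair and from limma's pooled variance, with log2 fold changes from 0.75 to 0.97 for ARRB1 and from 0.67 to 0.90 for ARRDC2, the widest ranges of these 5. When each gene kept its own variance, limma called 0 of the 7 and 13 of all 12080 genes tested. In that fit 6 of the 7 had an unadjusted p under 0.05, as did 4947 of all genes tested. The adjusted p-values of the 7 genes from limma then began at 0.0555. Limma voom called all 7, and 6593 of all genes tested.

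**Figure D5:**
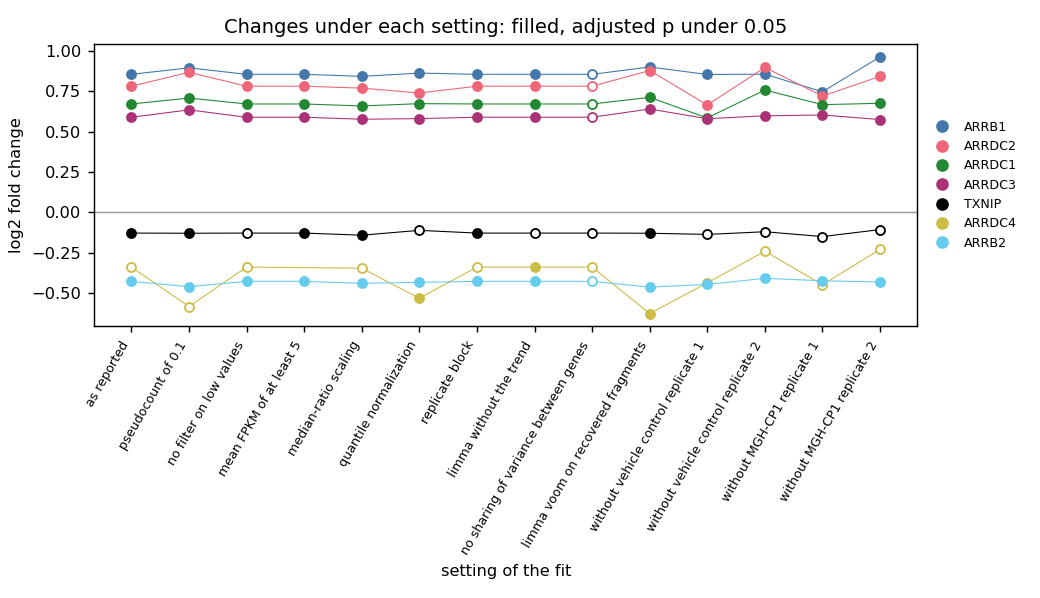
Log2 fold change of the 7 genes under each setting of the fit, with points filled where the adjusted p was under 0.05 and lines joining the points of each gene. The 4 rising genes stay above and the other 3 below 0 throughout, while the TXNIP and ARRDC4 points change between filled and open.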

How the data were processed

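The authors deposited FPKM for the 4 libraries, with the gene length in bases. CASAVA 1.8, STAR and hg19 are named in the submitters' processing notes, and the counting tool is not given in the sources used here. FPKM times length came out as whole fragments of the library for 100% of the values (tolerance 0.001), which recovered fragments per gene. Group comes from the sample titles. The groups were tested by limma 3.58.1 (R 4.3.3) on log2(FPKM + 1), over the 12080 genes whose FPKM averaged 1 or more, with a variance trend (5.97 prior degrees of freedom), two-sided, and Benjamini-Hochberg adjustment. The pseudocount of 1 understates changes of low genes. The members and lists were chosen with earlier results of these data known. Named genes are the members, the listed partners and the 3 genes nearest to ARRB1. On simulated data, 185 of 189 changed genes (97.9%) were recovered and 15 of 200 calls (7.5%) were false. Alternatives covered pseudocount, filter, scaling, variance model, replicate block, limma voom and each library left out. Counting error covers fragments only. Promoters are from RefSeq. A few listed genes are not reported here.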

Additional observations from a re-analysis of the deposited data

How the results depend on the processing

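Limma called 6142 genes and 6 of the 7 members. Without sharing of variance between genes it called 13 genes and 0 members, while 4947 genes and 6 members had an unadjusted p under 0.05, and limma voom called 6593 genes. The other alternatives, which include pseudocount, filter, scaling and trend, kept both counts within 1.5 times. Left-out libraries gave 4641 to 5540 genes and 5 members each, with TXNIP lost, but each then has a group of 1 library that is assumed to vary like the other. No member reversed. TXNIP was not called under 8 of 13 alternatives (adjusted p from limma 0.0603 to 0.202, and 0.0249 to 0.202 over all 13), among them quantile normalization, no filter and no trend. ARRDC4 was called under 3 of 12: quantile normalization (adjusted p = 0.0182 from limma), no trend (0.0431) and limma voom (0.0137), over a range of 0.0137 to 0.344. Its log2 fold change ran from -0.63 to -0.23, and it was not tested at a mean FPKM of at least 5.

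Nothing in the labels says that a replicate number marks a shared culture, and the deviations of same-numbered libraries correlated at 0.0777 across 12080 genes. With the replicate block, 6518 genes and 6 members were called, and no member changed its call. On fragments not divided by gene length, the difference in share was 17.9 percentage points for ARRB1 and -17.9 for ARRB2, against 21.9 and -21.9 on FPKM, since the gene lengths differ. In the alpha arrestins these differences were, for ARRDC2, ARRDC3 and ARRDC4, 3.50, 3.80 and -0.52 percentage points. On fragments ARRB1 already held 64.3% of the beta arrestin sum with vehicle, and 82.3% with MGH-CP1. The near-equal start of ARRB1 and ARRB2 thus holds on FPKM and depends on the gene lengths used. Fragment numbers limit ARRDC4 most.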
